A study of Mus musculus with 15 samples.

Results

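Microvessels from the brain hemisphere opposite a transplanted glioblastoma were compared with microvessels of sham-operated mice without a tumour. The comparison takes 6 of the 15 libraries of the study, 3 contralateral and 3 sham. It covers all 19668 of 27174 listed genes whose normalised score reached 10 in at least 3 of the 15 libraries. The study sequenced microvessel RNA from adult wild-type mice (BL6/57 in the labels) to follow an anti-angiogenic and an immune checkpoint treatment of the tumour, and kept contralateral and sham tissue as controls. Contralateral vessels came from the non-tumour side of mice that carried the tumour and received control IgG, 21 days after transplantation. Sham vessels came from mice labelled healthy, and their day of sampling, their side of the brain and any antibody given to them are not given in the sources used here. Every library was made from 3 pooled mice. Tumour transplantation differs between the groups. Control IgG, the choice of hemisphere and the day of sampling may differ with it, and these cannot be told apart. The p-values measure the spread between pools. The tumour cell line is not given either.

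Brain capillaries are lined by endothelial cells that form the blood-brain barrier, wrapped by pericytes and touched by astrocyte endfeet. Endothelial cells read blood flow, matrix stiffness and circulating cytokines. The YAP and TEAD factors carry mechanical signals to target genes such as Ctgf and Cyr61. STAT3 carries signals of the interleukin-6 family to target genes such as Lrg1 and Socs3. A microvessel preparation also carries along pieces of neighbouring cells, including synapses, myelin and choroid plexus, so RNA of those cells is measured with that of the vessels.

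Estimated depth was 6365348 to 14691859 reads in sham and 9752096 to 11931606 reads in contralateral libraries. The shallowest library was sham replicate 2. Correlations of log2 scores were 0.972 to 0.975 within sham, 0.965 to 0.975 within contralateral and 0.962 to 0.976 between the groups, so the ranges overlapped. The highest value between the groups was that of sham replicate 1 and contralateral replicate 3. The first principal component of the 6 libraries held 29.4% of the variance. It read -16.2, -39.76 and -40.15 in sham and 34.87, 47.53 and 13.71 in contralateral replicates 1 to 3, without overlap. Mitochondrial ribosomal RNA took 12.4%, 11.9% and 12.2% of the score in sham replicates 1 to 3 and 14.5%, 15.5% and 15.8% in contralateral replicates 1 to 3, without overlap. All 15 endothelial identity genes were present, with mean scores from 692.0 (Sox18) to 52339 (Flt1) in sham. Ptprb, a phosphatase of the endothelial surface, read 51804, 51221 and 49087 in sham and 56590, 44243 and 49035 in contralateral libraries. None of the 15 was called, and their median log2 difference was 0.12. The untreated tumour libraries (3, from the tumour side of mice given control IgG) are quoted below only as levels set beside these.

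Of the 19668 genes, 85 (0.432%) passed an adjusted p of 0.05 in limma: 50 rose (0.254%) and 35 fell (0.178%) in contralateral against sham vessels. The median log2 difference over all genes was -0.01. In all 85 the 3 contralateral scores lay entirely above or below the 3 sham scores, which was so for 21.0% of all genes tested. Of the 50 that rose, 35 had a mean more than 2 times the sham mean, and of the 35 that fell, 9 had a mean under 0.5 times it. An unadjusted p below 0.05 was reached by 2341 genes (11.9%).

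The calls rest on a spread shared over all 15 libraries. With only the 6 libraries fitted, limma called 0 genes: 3134 had an unadjusted p below 0.05, the lowest adjusted p was 0.0518, and 74 of the 85 were below 0.1. Leaving out 1 of the 6 libraries left 43 calls without sham replicate 1, 28 without sham 2, 30 without sham 3, 22 without contralateral 1, 52 without contralateral 2 and 63 without contralateral 3. All 85 kept their direction in every fit, and 13 were called in all 6 of these, among them Ctgf, Galnt15, Tnfsf8, Ch25h, Tmem173, Cebpd, Tnfrsf1a, Lrg1, Serpina3n, Tnfrsf9, Pet2 and Arc. Ctgf and Galnt15 were called in every fit made other than that of the 6 libraries alone. The share of rises among calls was 58.8%, against 80.7% after quantile normalisation, 71.1% when libraries were scaled to the endothelial identity genes, 49.4% with a pseudocount of 10, 37.4% with library weights and 30.7% with voom. Voom, which gives low scores less weight, did not call 29 of the 50 risen and 2 of the 35 fallen genes. Without untreated tumour replicate 2 and dual therapy replicate 2, a fit chosen after seeing the data, 208 genes were called, all 85 among them.

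**Figure D1:**
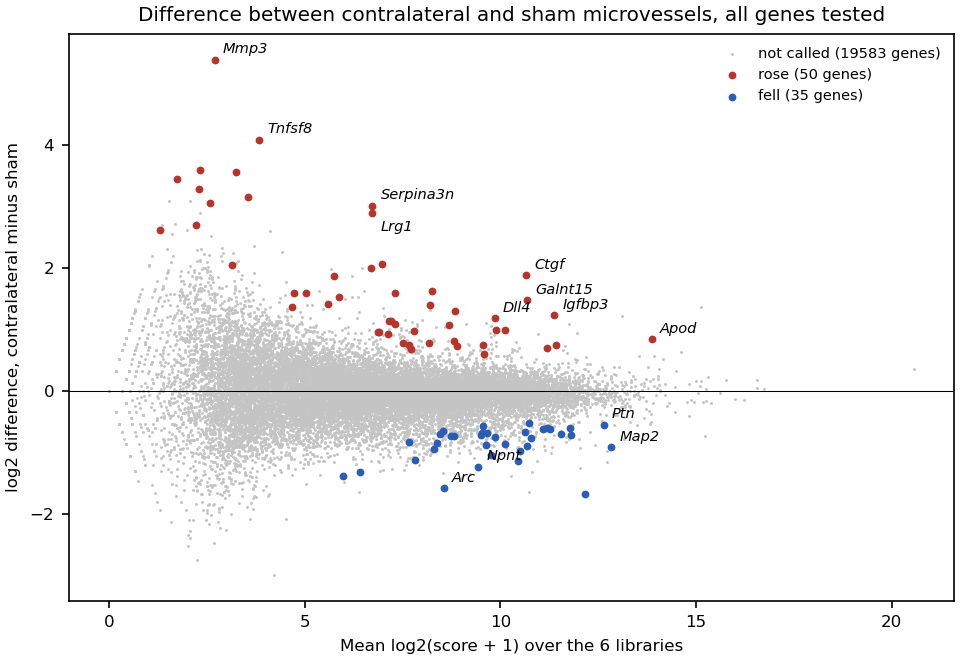
Log2 difference (contralateral minus sham, on log2(score + 1)) of each of the 19668 genes against its mean log2(score + 1) over the 6 libraries. Red points rose (50 genes) and blue points fell (35 genes) at a limma adjusted p below 0.05; risen genes include many with low scores, while Arc lies at -1.58 and Map2 at -0.90 among the fallen genes.

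The lowest adjusted p of any gene belonged to a secreted matricellular target of YAP and TEAD. Ctgf (ENSMUSG00000019997, chr10:24595442-24598683 on GRCm38), which encodes connective tissue growth factor, read 670, 999 and 879 in sham and 2795, 3961 and 2718 in contralateral replicates 1 to 3. The lowest contralateral library, at 2718, lay far above the highest sham library, at 999. The log2 difference was 1.89 ± 0.17 (SE; limma adjusted p = 4.13e-05), with 1.72 to 2.02 when any of the 6 libraries was left out. Untreated tumour vessels read 2662 ± 563 (SD, n = 3), beside 3158 ± 696.5 in contralateral and 849.3 ± 166.5 in sham vessels. Cyr61, the close relative of Ctgf, read 118, 229 and 193 in sham and 430, 918 and 394 in contralateral libraries, highest in replicate 2. It rose by 1.63 ± 0.30 (adjusted p = 0.0205). Without contralateral replicate 2, sham replicate 1 or sham replicate 3 its adjusted p was 0.0755, 0.089 and 0.0682. Igfbp3, a secreted carrier of insulin-like growth factors, read 1903, 1933 and 1395 in sham and 5320, 2715 and 4626 in contralateral libraries, lowest there in replicate 2. Its rise was 1.23 ± 0.22 (adjusted p = 0.0193), and untreated tumour vessels read 11223, 6285 and 10560. That call was lost without contralateral 1 (adjusted p = 0.108), contralateral 3 (0.0686), sham 2 (0.0528) or sham 3 (0.131), and with endothelial identity scaling (0.131).

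Of the 21 YAP and TEAD target genes tested, these 3 rose, beside 0.254% of all genes, and none fell. Above 0 lay 15 of the 21, beside 48.1% of all genes, below it 6, beside 51.6%, and the list's median was 0.25. Its summed score was 20594 to 22233 in sham and 27542 to 31669 in contralateral libraries. Most of that rise came from the 3 called genes. Their means went from 849.3 to 3158 (Ctgf), from 1743.7 to 4220.3 (Igfbp3) and from 180.0 to 580.67 (Cyr61). Without overlap, 8 of the 21 were higher in contralateral libraries, beside 8.5% of all genes, and 3 were lower, beside 12.5%. Other targets moved less: Ajuba, a LIM scaffold that binds the LATS kinases, read 106, 121 and 145 against 177, 214 and 228 (0.73, 95% interval 0.31 to 1.16, adjusted p = 0.115). Fjx1 moved the other way, with 116, 119 and 112 against 54, 75 and 86 (-0.71, interval -1.195 to -0.22, limma adjusted p = 0.197). Ankrd1 was at 0 in all 6 libraries. Of 26 genes of TGF-beta and BMP signalling, which also acts on Ctgf, none was called, 5 had an unadjusted p below 0.05, and the median was 0.07. Its member Bmpr2, a receptor subunit for BMP ligands, differed by 0.05 (interval -0.19 to 0.29). Bmp4, a ligand outside that list, read 86, 141 and 79 against 218, 186 and 258 and rose by 1.14 ± 0.22 (adjusted p = 0.0258), a call kept only without contralateral 2 or sham 2 among the fits that left out a library (0.0924 to 0.176 in the others).

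The RefSeq window of 250 bases before to 50 after the start of Cyr61 (RefSeq symbol Ccn1; chr3:145649936-145650235, minus strand, GRCm38.p6) is shown because it holds 1 match to the core TEAD motif GGAATG, searched on both strands. The match, in capitals, lies on the opposite strand, and begins 103 bases before the start.
Cyr61: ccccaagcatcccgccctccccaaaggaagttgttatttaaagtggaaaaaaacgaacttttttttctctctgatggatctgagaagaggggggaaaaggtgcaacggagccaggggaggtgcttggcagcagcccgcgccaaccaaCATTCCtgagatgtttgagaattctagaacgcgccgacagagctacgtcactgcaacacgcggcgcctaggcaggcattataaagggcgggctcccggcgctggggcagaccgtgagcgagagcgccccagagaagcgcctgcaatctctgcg
The same letters were found in 8 of the 40 risen genes with a window (20%), in none of 25 fallen genes and in 14.8% of all 12585 tested genes with one. The other 7 risen genes with the letters were Clec14a, Lpar6, Nr4a1, Parp3, Ptges, Runx1 and Spry1. Ctgf had no window among those used, so its promoter was not searched for any motif.

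Acute phase and cytokine response genes of vessels formed the list with the most rises. Of 28 members tested 9 rose, beside 0.254% of all genes, and none fell, 26 lay above 0, and in 16 the contralateral libraries were all above the sham libraries, beside 8.5% of all genes. The median log2 difference was 0.68. The number called was 5 to 11 when 1 of the 6 libraries was left out, and the median 0.62 to 0.84. The list was drawn up with earlier results of these data known, so these counts are a description.

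Lrg1 (ENSMUSG00000037095, chr17:56119680-56121946), a secreted glycoprotein that modulates endothelial TGF-beta signalling, read 38, 47 and 30 in sham and 500, 380 and 127 in contralateral libraries. The 3 contralateral libraries differed widely among themselves, and the lowest, replicate 3, was still above every sham library. The log2 difference was 2.91 ± 0.39 (adjusted p = 0.00283), and voom gave an adjusted p of 0.07. Serpina3n, a secreted protease inhibitor of the acute phase, read 39, 28 and 43 against 838, 252 and 127, in the same order of contralateral replicates. It rose by 3.02 ± 0.47 (adjusted p = 0.00776; 0.199 with voom). Lcn2, the iron-carrier binding protein of the acute phase, read 49, 74 and 22 against 385, 192 and 74, which touch at 74. It was not called (2.01, interval 1.09 to 2.93, adjusted p = 0.0516).

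Of the intracellular regulators in the list, Socs3, Cebpd and Cebpb rose, while Stat3, Nfkbiz and Nfkbia were not called. Socs3, the feedback inhibitor of STAT3 signalling, read 59, 43 and 50 in sham and 227, 392 and 96 in contralateral libraries. It rose by 2.004 ± 0.33 (adjusted p = 0.0102), and the call was lost without contralateral replicate 1 (0.0542) or sham replicate 2 (0.0632) and with voom (0.116). Cebpd, a transcription factor of the acute phase, read 252, 309 and 281 against 479, 723 and 602 and rose from a mean of 280.7 to 601.3 (adjusted p = 0.00899). Its relative Cebpb rose from a mean of 95.7 to 217.7 (1.14 ± 0.23, adjusted p = 0.0354), a call kept only without contralateral 3 when 1 library was left out (0.0617 to 0.223 in the others). Stat3 itself read 1732, 1744 and 1335 against 2404, 2609 and 1901, above every sham library, and was not called (0.52, interval 0.22 to 0.82, adjusted p = 0.117). Nfkbiz, an atypical inhibitor of NF-kappaB, differed by 0.59 (adjusted p = 0.135). Nfkbia, the classical inhibitor of NF-kappaB, read 2507, 2386 and 2089 against 1852, 2463 and 1820 and overlapped (-0.20, interval -0.55 to 0.16, adjusted p = 0.726).

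Among the cytokine receptors of this list Osmr, Tnfrsf1a and Il4ra rose, while Il6st, Il6ra, Tnfrsf12a, Il1rl1 and Il1r1 were not called (adjusted p 0.112 to 0.935; Il1r1 at -0.08). Osmr, the oncostatin M receptor, read 2347, 2168 and 1836 in sham and 3509, 4230 and 3026 in contralateral libraries (0.75 ± 0.14, adjusted p = 0.0208). Tnfrsf1a, the main TNF receptor, read 597, 614 and 524 against 1003, 1128 and 800 (0.74 ± 0.12, adjusted p = 0.00776). Il4ra, a subunit of the interleukin-4 and -13 receptors, read 358, 341 and 322 against 623, 767 and 458 (0.82 ± 0.17, adjusted p = 0.031). Osmr was called without contralateral 3 or sham 1, Il4ra only without contralateral 3, and Tnfrsf1a without any of the 6. Ch25h, whose enzyme makes 25-hydroxycholesterol in activated cells, read 67, 76 and 43 against 288, 265 and 222. Its contralateral replicates lay close together, the rise was 2.07 ± 0.29 (adjusted p = 0.00327), and it was called with voom as well (0.0344). Untreated tumour vessels read 547.7 ± 18.7 for Ch25h, 755.3 ± 106 for Socs3, 477.7 ± 54.0 for Lrg1 and 919.3 ± 488 for Serpina3n.

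**Figure D2:**
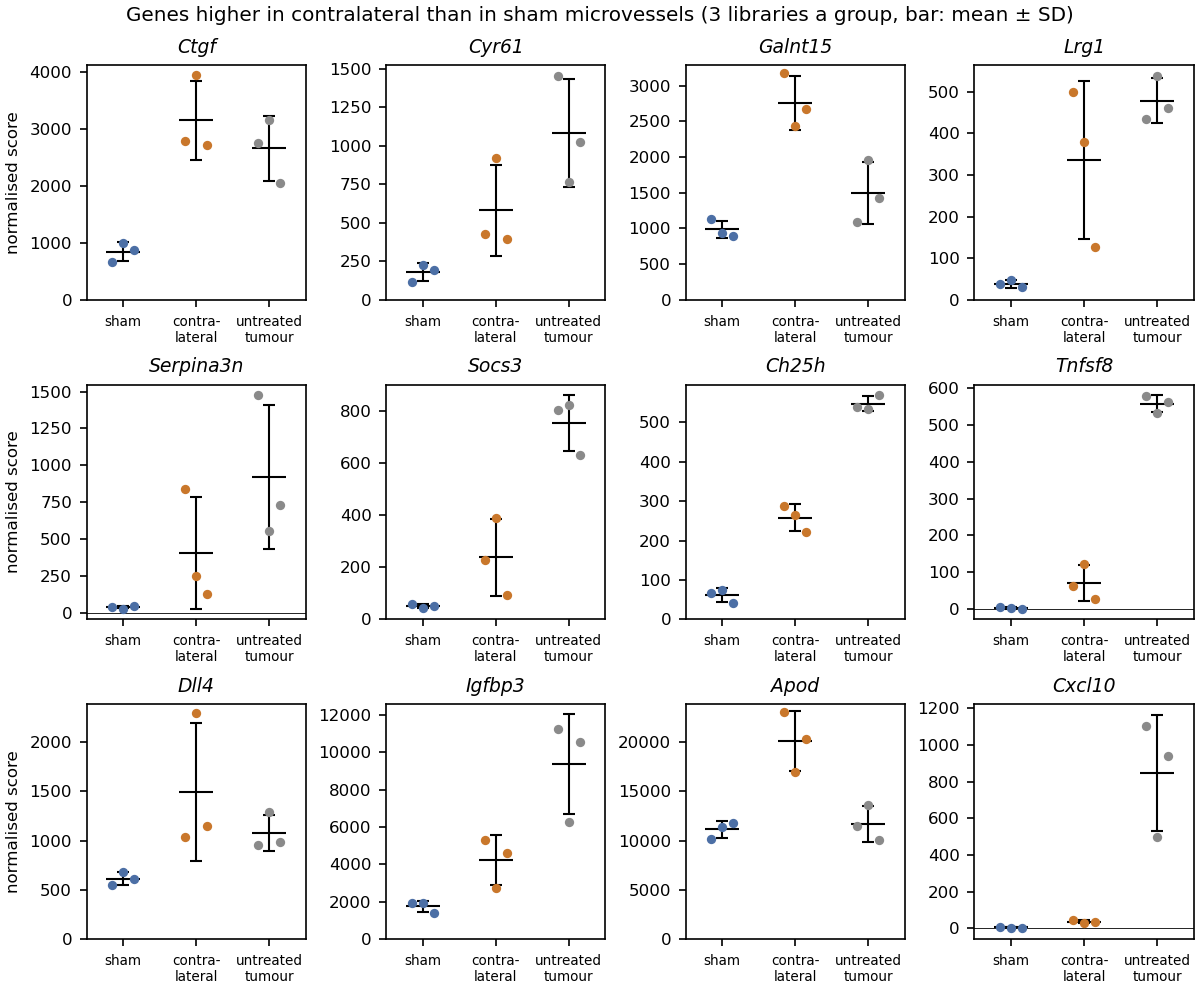
Normalised score of 12 risen genes in each library of sham, contralateral and untreated tumour vessels (points), with the mean and SD of 3 libraries (bars). Each panel has its own linear axis from 0; no contralateral point of any panel lies at or below a sham point, and relative to their means Serpina3n, Tnfsf8, Socs3 and Lrg1 vary most between contralateral replicates.

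Ligands and receptors of the TNF superfamily, a list added after the values were seen, held 3 rises and no fall among 27 tested genes, beside 0.254% of all genes that rose (median 0.26). Tnfsf8, the ligand of CD30, read 6, 2 and 1 in sham and 61, 123 and 26 in contralateral libraries, and 578, 533 and 562 in untreated tumour vessels. Sham was near the level of single reads and every contralateral library was above it. The log2 difference was 4.09 ± 0.45 (adjusted p = 0.000362) on log2(score + 1) and was not called with voom (0.131). Tnfrsf9, the T cell costimulatory receptor 4-1BB, read 3, 0 and 0 against 21, 16 and 9 (adjusted p = 0.00698), and 246, 187 and 148 in untreated tumour.

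Chemokine ligands, also listed after their values were seen, held 3 rises and no fall among 26 tested, beside the same share of all genes. Cxcl10, an interferon-induced ligand of CXCR3, read 9, 2 and 1 in sham and 43, 27 and 34 in contralateral libraries (3.16 ± 0.53, adjusted p = 0.0113). Cxcl9, another ligand of that receptor, read 6, 2 and 0 against 80, 9 and 42 (adjusted p = 0.0343). Ccl6, a ligand made by myeloid cells, read 12, 20 and 23 against 68, 73 and 34 (1.59 ± 0.29, adjusted p = 0.0205). None of the 3 was called with voom. With 1 library left out, Cxcl10 stayed called without contralateral 2, contralateral 3 or sham 1, Cxcl9 without contralateral 2 or sham 1, and Ccl6 without contralateral 3 or sham 3, with adjusted p-values of 0.0594 to 0.233 otherwise. Untreated tumour vessels read 848.7 ± 316 for Cxcl10 and 1064 ± 484 for Cxcl9. The list's median was 0.37, while its summed score was lower in contralateral libraries (9946 to 13613, against 14942 to 16497). Most of that sum was Cxcl12, which read 14305, 13024 and 14645 against 7961, 10942 and 9892 and was not called (-0.55, interval -0.97 to -0.14, adjusted p = 0.245).

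Monocyte and macrophage markers moved in the same direction. Of 18 tested, 2 rose, beside 0.254% of all genes, and none fell, 16 lay above 0, and the median was 0.32. Their summed score, 36794 to 41923 in sham and 39897 to 46000 in contralateral libraries, overlapped between the groups. Most of that sum was fibronectin, Fn1, which is also in the extracellular matrix list. Fn1 read 32193, 36632 and 31966 against 37991, 40462 and 34385, so the sum says little about the other markers. The mean log2 level of the list was higher in every contralateral library than in any sham library. Cd14, the lipopolysaccharide co-receptor of monocytes, read 31, 19 and 34 against 117, 183 and 49. It rose by 1.87 ± 0.36 (adjusted p = 0.0244), and with 1 library left out the call held only without contralateral 3 (0.062 to 0.13 in the others). Chil3, a chitinase-like protein of myeloid cells, read 2, 0 and 0 against 10, 36 and 12 (adjusted p = 0.0164), and was not called without contralateral 2, sham 2 or sham 3 (0.0755, 0.0872 and 0.0975). In pooled vessel RNA, more cells of a type and more RNA per cell cannot be told apart, and the part of myeloid cells in the rises of Ccl6, Cxcl9, Cxcl10 and the other cytokine genes was not tested. T and NK cell genes were near the detection limit, with a summed score of 75 to 139 in sham and 111 to 207 in contralateral libraries, and none of 18 was called (median 0.75). Of 28 interferon response genes none was called, 1 had an unadjusted p below 0.05, and the median was 0.02 (-0.05 with endothelial identity scaling). Among 16 antigen presentation genes none was called (median 0.20).

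Mmp3, stromelysin-1, a secreted metalloproteinase that degrades matrix, was listed at 0 in all 3 sham libraries and read 28, 511 and 4 in contralateral libraries. Replicate 2 held nearly all of the signal. It was called (adjusted p = 0.0226), but not without contralateral 1 (0.069) or any sham library (0.0709, 0.0936 and 0.107), nor with voom (0.66). Untreated tumour vessels read 357, 1028 and 148. Its promoter window (RefSeq, GRCm38.p6, chr9:7445572-7445871, plus strand) is shown for its 1 match to the AP-1 motif TGANTCA, searched on both strands and set in capitals, which begins 46 bases before the start.
Mmp3: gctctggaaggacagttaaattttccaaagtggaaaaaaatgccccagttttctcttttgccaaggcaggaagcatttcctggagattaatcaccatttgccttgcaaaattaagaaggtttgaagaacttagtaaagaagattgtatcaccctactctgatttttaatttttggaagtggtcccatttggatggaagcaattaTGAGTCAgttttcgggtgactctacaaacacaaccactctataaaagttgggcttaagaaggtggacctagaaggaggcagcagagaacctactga
Those letters were found in 6 of 40 risen genes (15%), in none of 25 fallen genes and in 6.69% of all 12585: besides Mmp3 in Cxcl9, Cxcl10, Galnt15, Osmr and Tnfrsf9. The STAT motif TTCCNGGAA was in none of the 40 risen genes and in 1.47% of all, and the cyclic AMP response element TGACGTCA was in 1 risen gene, Ch25h (2.5%, against 3.27% of all).

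Ubd, Pet2, Nnmt and Exo1 also rose from scores at or near 0. Ubd, an interferon-induced ubiquitin-like modifier, was listed at 0 in all sham libraries and read 16, 6 and 10 in contralateral and 798, 210 and 379 in untreated tumour libraries (adjusted p = 0.00776; 0.802 with voom and 0.0527 without contralateral 1). Pet2, an X-linked gene chosen for the list of genes high in the tumour region, was listed at 0 in sham and read 10, 6 and 2 in contralateral and 1447, 842 and 801 in untreated tumour libraries (adjusted p = 0.00776; 0.532 with voom). H19, an imprinted RNA of the same list, read 16, 7 and 6 in sham, 157, 50 and 12 in contralateral and 6530, 5892 and 2938 in untreated tumour libraries. It overlapped and was not called (adjusted p = 0.0881). Of the 8 tumour-region genes, 1 rose, beside 0.254% of all genes, and 7 were not called. Above 0 lay 4 of them and below it 4, down to -1.158. Their summed score was 88 to 109 in sham and 239, 117 and 92 in contralateral replicates 1 to 3. Hmga2 read 0 in sham and 1, 0 and 1 in contralateral libraries. Whether tumour RNA entered the contralateral libraries was not tested. Nnmt, nicotinamide N-methyltransferase, read 2, 0 and 2 against 20, 10 and 22, and 18, 10 and 8 in tumour (adjusted p = 0.0233). Exo1, a DNA repair exonuclease, read 1, 0 and 2 against 11, 13 and 9 (adjusted p = 0.0102). Without contralateral 1 neither was called (0.123 for Nnmt and 0.052 for Exo1), and Nnmt was not called without contralateral 3 (0.0871), sham 2 (0.114) or sham 3 (0.0517).

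Some of the other risen genes have a known place in vessel growth or in endothelial cells, while none of the endothelial identity genes was called. Which cells gave the RNA of the risen genes was not tested. Galnt15 (ENSMUSG00000021903, chr14:32028989-32062197), of the family of transferases that begin O-glycan synthesis, read 1128, 936 and 896 in sham and 3168, 2427 and 2672 in contralateral libraries. The groups lay far apart and each was tight, and the rise was 1.48 ± 0.17 (adjusted p = 0.000603). Untreated tumour vessels read 1097, 1954 and 1420, all below the contralateral libraries. Dll4, the Notch ligand of tip cells and arteries, read 546, 677 and 613 against 1035, 2298 and 1144 and rose by 1.19 ± 0.23 (adjusted p = 0.0273). Without contralateral replicate 2, its highest library, the adjusted p was 0.0755, and without any sham library it was 0.0826 to 0.129. Cxcr4, the receptor of Cxcl12, read 27, 24 and 35 against 75, 81 and 77 and rose by 1.42 ± 0.26 (adjusted p = 0.0204; 0.146 with voom), and with 1 library left out it was called only without sham 3 (0.0528 to 0.0938 in the others).

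Those 2 were the only calls among 27 angiogenic endothelium genes, beside 0.254% of all genes that rose. Of the 27, 20 lay above 0 and 9 had all contralateral libraries above sham, beside 8.5% of all genes (median 0.24). Angpt2, the angiopoietin that loosens vessels, read 348, 454 and 355 against 524, 1641 and 634 and was not called (1.09, interval 0.37 to 1.81, adjusted p = 0.176). Pgf, placental growth factor, read 313, 307 and 306 against 538, 506 and 465 (0.70, interval 0.36 to 1.04, adjusted p = 0.0663). Adm, the vasodilator adrenomedullin, read 27, 50 and 40 against 92, 327 and 93 (1.87, interval 0.92 to 2.83, adjusted p = 0.0791). Contralateral replicate 2 was the highest library for Dll4, Angpt2, Adm, Cyr61, Socs3 and Cd14. Of 14 VEGF and angiopoietin signalling genes none was called (median -0.02): Flt1 differed by 0.18 (interval -0.21 to 0.56), and Tek, the angiopoietin receptor, by -0.26 (-0.61 to 0.09). Vegfa read 255, 218 and 340 against 206, 345 and 264 and Kdr, the main VEGF receptor, 6687, 8061 and 7780 against 7290, 9745 and 7203, both overlapping.

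Further risen genes included the homeobox factors Hhex and Hlx. Hhex read 142, 182 and 224 against 554, 381 and 513 (1.403 ± 0.22, adjusted p = 0.00776), and Hlx read 109, 112 and 102 against 268, 196 and 232 (1.09 ± 0.18, adjusted p = 0.0081). Without contralateral 1 their adjusted p was 0.0527 and 0.0588. Clec14a, an endothelial surface lectin, rose from a mean of 1830 to 2975 (0.70 ± 0.11, adjusted p = 0.00776), but not with endothelial identity scaling (0.159) or without contralateral 1 (0.0542). Gpr182, a receptor of endothelial cells, rose by 0.98 ± 0.18, and Kcnj2, an inward rectifier potassium channel of capillaries, rose from a mean of 666.7 to 1372 (adjusted p = 0.0226 and 0.0159). With 1 library left out Gpr182 was called only without contralateral 2 (0.0602 to 0.136 in the others), and Kcnj2 was not called without sham 1 (0.062) or sham 2 (0.0872). Apod, a lipid-carrying lipocalin, read 10194, 11431 and 11833 against 23087, 16943 and 20319. It had the highest scores of any risen gene, no contralateral library was below 16943, and untreated tumour vessels stood at 11704 ± 1828. The rise was 0.84 ± 0.15 (adjusted p = 0.0164), not called without contralateral 1 (0.104), sham 1 (0.0709) or sham 2 (0.0647). Galnt15, Hhex, Hlx, Clec14a, Gpr182 and Apod were highest in contralateral replicate 1 and lowest in replicate 2 among the 3. So was the summed score of choroid plexus markers (88437, 42758 and 65121). The share of all genes with that order was not counted. Tmem173, the innate DNA-sensing adaptor STING, read 32, 39 and 30 against 98, 111 and 87 (1.52 ± 0.22, adjusted p = 0.00458; 0.0923 with voom). Ier3, an early response gene against apoptosis, read 104, 91 and 79 against 271, 500 and 154 (1.59 ± 0.34, adjusted p = 0.0389), and with 1 library left out it was called only without contralateral 3 (0.0828 to 0.218 in the others). The remaining risen genes were Lgals3, Rab32, Gm26819, Ptges, Runx1, Parp3, Lpar6, Pnp, Spry1 and Zfp217, with log2 differences of 0.69 to 2.06.

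Barrier genes were measured in full and none passed the test. Of 28 blood-brain barrier genes, 20 lay above 0, 8 had all contralateral libraries above sham (8.5% of all genes did) and 3 below (12.5% of all genes), and the median was 0.11 (0.03 with endothelial identity scaling). Cldn5, the main claudin of the barrier, read 4989, 5329 and 5839 against 6595, 8342 and 6420, without overlap, and differed by 0.40 (interval 0.09 to 0.70, adjusted p = 0.266). Slc2a1, the glucose transporter, differed by 0.09 (interval -0.28 to 0.46), Abcb1a, the P-glycoprotein efflux pump, by 0.12 (-0.18 to 0.42), Mfsd2a, the lipid transporter that holds down transcytosis, by -0.22 (-0.68 to 0.25) and Plvap, the diaphragm protein of leaky vessels, by 0.22 (-0.39 to 0.83). A rise or fall larger than 1 log2 unit lies outside each of these intervals. Wnt/beta-catenin genes, which maintain the barrier, had a median of 0.03 (-0.04 with endothelial identity scaling) and no call among 22.

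The 3 called activity-regulated and immediate early genes split in direction. Nr4a1, an orphan nuclear receptor induced within minutes of stimulation, read 193, 376 and 346 against 532, 1177 and 605 and rose by 1.302 ± 0.27 (adjusted p = 0.0389). Fosl2, an AP-1 subunit, read 630, 923 and 832 against 1327, 2301 and 1247 and rose by 0.99 ± 0.20 (adjusted p = 0.0274). With 1 library left out Nr4a1 was never called (0.0527 to 0.146) and Fosl2 only without contralateral 3 (0.0527 to 0.107 in the others). Arc (ENSMUSG00000022602, chr15:74669083-74672570), the activity-induced gene of excitatory neurons, read 448, 711 and 848 in sham and 163, 268 and 231 in contralateral libraries. It fell by 1.58 on the log2 scale (SE 0.24, adjusted p = 0.00698), with 64.3 ± 8.96 in untreated tumour vessels. All 12 neuron markers, described below, also lay below 0 (median -0.54). The part of neuronal RNA in the fall of Arc was not tested. Of the 29 activity-regulated and immediate early genes listed, 2 rose and 1 fell, beside 0.254% and 0.178% of all genes. Their median was 0.16 (-0.09 to 0.28 with 1 library left out). The mean log2 level of the list, minus its sham mean, was -0.21, 0.73 and -0.15 in contralateral replicates 1 to 3. In sham replicates 1 to 3 it was -0.23, 0.095 and 0.13, so only contralateral replicate 2 lay above the sham range. Fos read 108, 188 and 101 against 159, 504 and 157, overlapped and was not called (adjusted p = 0.339).

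Rbm3 and Cirbp, in no list, rose, and 1 heat shock gene fell. Rbm3 and Cirbp encode cold-inducible RNA-binding proteins. Rbm3 read 576, 605 and 670 against 834, 1012 and 970 (0.60 ± 0.11, adjusted p = 0.0205), and Cirbp read 81, 84 and 85 against 164, 126 and 209 (0.96 ± 0.21, adjusted p = 0.0493). With endothelial identity scaling their adjusted p was 0.18 and 0.224. With 1 library left out Rbm3 was called only without contralateral 1 or sham 3, and Cirbp only without contralateral 2 (0.0686 to 0.181 in the others). Hsph1, a heat shock co-chaperone of the HSP110 family, read 1746, 2060 and 2168 against 1201, 1466 and 1121 and fell by 0.66 (SE 0.12, adjusted p = 0.0205; 0.0838 with endothelial identity scaling). It was not called without contralateral 1 (0.105), contralateral 3 (0.0796), sham 2 (0.0959) or sham 3 (0.136). Among 20 heat shock protein genes, listed after these values were seen, 1 fell, beside 0.178% of all genes, and none rose. Below 0 lay 18, beside 51.6% of all genes. In 11 all contralateral libraries were below sham, beside 12.5% of all genes, and the median was -0.30. Neuron, oligodendrocyte and astrocyte markers, described below, had medians of -0.54, -0.91 and -0.46. Hsp90ab1, a constitutive chaperone, read 15598, 17866 and 19547 against 12892, 12506 and 12067 and was not called (-0.50, interval -0.78 to -0.21, adjusted p = 0.115). Conditions of animals or tissue that could differ between the groups, such as body temperature or time to dissection, are not given in the sources used here.

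Genes of neurons and synapses were prominent among those that fell. Shank1, a scaffold of the postsynaptic density, read 1922, 1736 and 2663 against 910, 949 and 958 and fell by 1.14 (SE 0.24, adjusted p = 0.0353). Its relative Shank2 read 1442, 1397 and 1685 against 888, 781 and 833 and fell by 0.85 (SE 0.14, adjusted p = 0.0113). Dlg4, the scaffold PSD-95, read 1120, 1215 and 1308 against 657, 741 and 771 and fell by 0.75 (SE 0.16, adjusted p = 0.0389). Map2, which binds dendritic microtubules, read 8968, 9178 and 12054 against 4845, 5405 and 5780 and fell by 0.90 (SE 0.19, adjusted p = 0.0349). In each of these genes sham replicate 3 was the highest library and every contralateral library lay below every sham library.

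Leaving out sham replicate 3 gave adjusted p-values of 0.243 for Shank1, 0.0904 for Shank2, 0.23 for Dlg4 and 0.234 for Map2. Shank1, Dlg4 and Map2 were called in none of the 6 fits that left out a library. Untreated tumour vessels read lower still: 481.0 ± 68.0 for Shank1, 333.7 ± 15.5 for Shank2 and 1636 ± 360.1 for Map2, with 322, 388 and 490 for Dlg4. Among 35 postsynaptic density genes, a list added after the values were seen, 6 fell (among them Shank1, Shank2, Dlg4, Agap2 and Sipa1l1), none rose, all 35 lay below 0 and 28 had every contralateral library below sham. Over all genes 0.178% fell, 51.6% lay below 0 and 12.5% had every contralateral library below sham. Its median was -0.54, and the number called ran from 0 to 3 when 1 library was left out. With endothelial identity scaling 0 of the list were called (median -0.62), and after quantile normalisation 1 was. Among 20 presynaptic terminal genes, also added, Unc13a fell, all 20 lay below 0, 16 had every contralateral library below sham, and the median was -0.57, beside the same shares of all genes. With endothelial identity scaling or quantile normalisation 0 of these 20 were called, and the scaled median was -0.64. Unc13a primes synaptic vesicles and fell by 0.87 (SE 0.17, adjusted p = 0.0231), but not without sham 3 (0.176), sham 2 (0.0791) or contralateral 1 (0.136). Agap2, a GTPase-activating protein of brain, read 1939, 2079 and 2705 against 1086, 1259 and 1248. Actn2, an alpha-actinin found in spines and muscle, read 121, 102 and 189 against 60, 47 and 52. Sptb, a beta-spectrin, read 1631, 1716 and 3018 against 1074, 952 and 1112, and Atcay, neuronal caytaxin, 400, 408 and 519 against 223, 194 and 274. These 4 fell by 0.89 to 1.31, and without sham 3 their adjusted p was 0.211, 0.328, 0.0976 and 0.212. Agap2 and Actn2 were called in none of the 6 fits that left out a library, Atcay only without contralateral 3.

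General markers of brain cells were lower beside them. Of 12 neuron markers all lay below 0 and 9 were lower without overlap, beside 12.5% of all genes (median -0.54), though none was called. Their summed score was 20035 to 28109 in sham and 13368 to 16131 in contralateral libraries. Camk2a, the kinase of excitatory synapses, read 6582, 6318 and 9494 against 3810, 4141 and 4115 (-0.87, interval -1.34 to -0.40, adjusted p = 0.0964). Oligodendrocyte markers had a summed score of 21870 to 29939 against 13482 to 14097 (all 10 below 0, median -0.91), oligodendrocyte precursor markers had a median of -0.69, and astrocyte markers had summed scores of 79107 to 107331 against 65092 to 70008 (all 13 below 0, median -0.46). Neuron, oligodendrocyte and astrocyte markers thus stood lower in every contralateral library than in any sham library. Whether the falls of synapse genes follow the amount of adhering tissue was not tested.

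**Figure D3:**
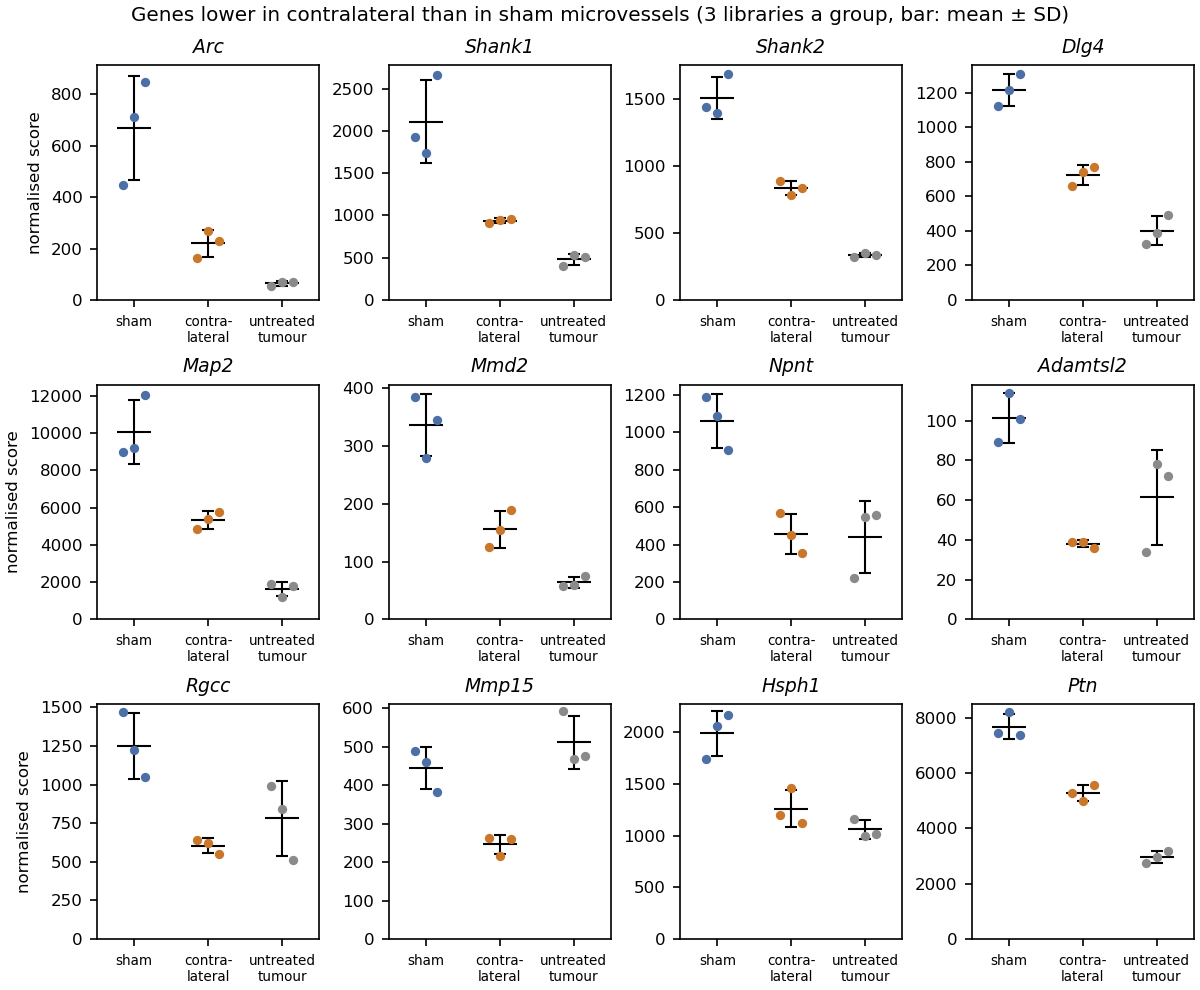
Normalised score of 12 fallen genes in each library of sham, contralateral and untreated tumour vessels (points), with the mean and SD of 3 libraries (bars), each panel on its own linear axis from 0. No contralateral point lies at or above a sham point; the neuronal genes Arc, Shank1, Shank2, Dlg4 and Map2 are lower again in tumour vessels, while Mmp15 stands at 511.7 ± 69.7 there against 246.3 ± 25.4 in contralateral vessels.

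Another set of fallen genes encodes secreted or surface proteins, or regulators, with no synaptic role in their name. Npnt, the basement membrane protein nephronectin, read 1188, 1087 and 903 in sham and 568, 449 and 356 in contralateral libraries and fell by 1.23 (SE 0.25, adjusted p = 0.0349). Rgcc, a cell cycle regulator responsive to complement, read 1473, 1224 and 1050 against 641, 621 and 552 and fell by 1.03 (SE 0.20, adjusted p = 0.0226). Mmp15, a membrane-bound metalloproteinase, read 490, 460 and 383 against 262, 217 and 260 and fell by 0.85 (SE 0.16, adjusted p = 0.0226). Unlike the synapse genes, these 3 were highest in sham replicate 1 and lowest in sham replicate 3. Adamtsl2, a matrix protein that binds latent TGF-beta complexes, read 89, 114 and 101 against 39, 39 and 36 and fell by 1.39 (SE 0.29, adjusted p = 0.0353). Mmd2, a membrane protein of the progestin and adipoQ receptor family, read 384, 279 and 345 against 125, 154 and 189 and fell by 1.11 (SE 0.20, adjusted p = 0.0164). Npnt and Adamtsl2 were called in none of the 6 fits that left out a library (adjusted p 0.0542 to 0.14 and 0.0742 to 0.17), Rgcc was called in 1, Mmp15 in 2 and Mmd2 in 3. Ptn, the growth factor pleiotrophin, read 7458, 8210 and 7367 against 5290, 4984 and 5554 and fell by 0.54 (SE 0.11, adjusted p = 0.0361), and was called in none of those 6 fits (0.0686 to 0.183). The remaining fallen genes, with differences of -0.83 to -0.56, were Golm1, Hivep2, Hectd4, Gprasp1, Rapgef4, Camkk2, Epb41l3, Nrep, Enc1, Lfng, Azin1, Mast3, Dmtn, Prkcb and Tprn.

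The other function lists held no call. Their medians were 0.16 for 22 extracellular matrix genes, 0.13 for 15 leukocyte adhesion genes, 0.12 for 17 circadian clock genes, 0.23 for 14 glucocorticoid-responsive genes, -0.04 for 20 cholesterol synthesis genes, 0.06 for 21 hypoxia and glycolysis genes and -0.07 for 28 proliferation genes. Of the circadian clock genes 0 had an unadjusted p below 0.05 in limma, beside 11.9% of all genes. Of the 14 glucocorticoid-responsive genes 7 did, 5 of them higher and 2 lower in contralateral libraries. That list ran from -1.03 to 0.81, and its lowest adjusted p in limma was 0.205. Mki67, the proliferation antigen, read 88, 102 and 94 against 88, 35 and 75 (-0.61, interval -1.31 to 0.08). Fkbp5, a target of the glucocorticoid receptor, read 717, 456 and 347 against 711, 267 and 428 and overlapped. Fn1, fibronectin, read 32193, 36632 and 31966 against 37991, 40462 and 34385 (0.16, interval -0.17 to 0.50).

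**Figure D4:**
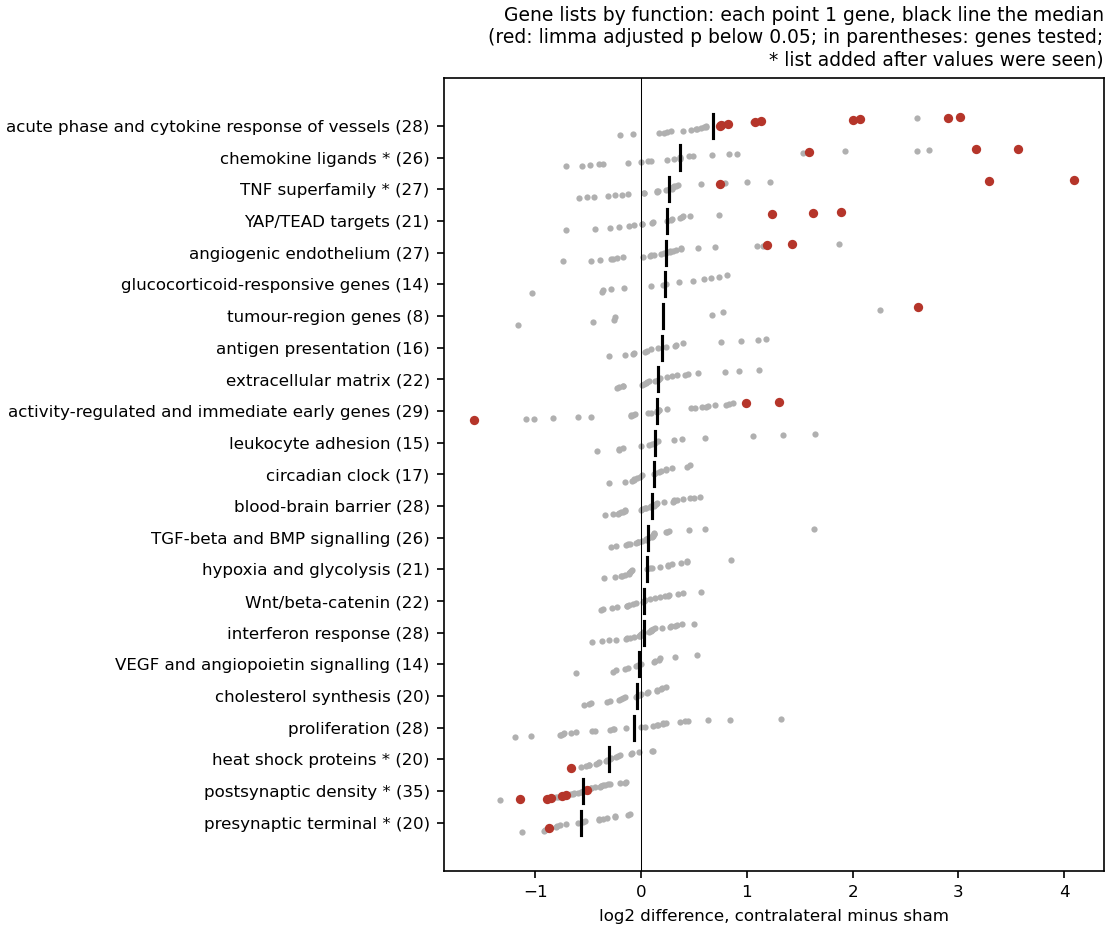
Log2 difference (contralateral minus sham) of each tested member of 23 function lists (1 point a gene; red, limma adjusted p below 0.05; black line, median of the list; asterisk, list added after the values were seen). Acute phase and cytokine response genes lie furthest to the right with a median of 0.68 and 9 calls, and postsynaptic and presynaptic lists furthest to the left with -0.54 and -0.57.

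Among markers of vessel wall cells no gene was called. The median was 0.20 for 14 pericyte, 0.15 for 10 smooth muscle and 0.09 for 11 fibroblast genes. Pdgfrb, the pericyte growth factor receptor, read 2700, 3282 and 3006 against 3475, 4484 and 3838 (0.39, interval 0.12 to 0.66, adjusted p = 0.201), and Rgs5, a pericyte regulator of G protein signalling, 46033, 45162 and 44910 against 35227, 45216 and 39962 (-0.18, interval -0.50 to 0.13). Venous endothelial markers had a median of 0.26 and a summed score of 32199 to 39110 in sham and 42686 to 58818 in contralateral libraries, while arterial markers had a median of -0.05. Vwf, the von Willebrand factor of larger vessels and veins, read 12393, 14412 and 11246 against 22767, 18102 and 16283 without overlap (0.58, interval 0.22 to 0.94, adjusted p = 0.145). Lcn2 belongs to both the venous and the acute phase list. The part of vessel calibre in the rises was not tested.

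Choroid plexus and ependyma markers stood apart in the other direction from the glia. Of 12 tested, 11 lay above 0 and 6 were higher without overlap, beside 8.5% of all genes (median 0.88), and the summed score was 23996 to 26876 in sham and 88437, 42758 and 65121 in contralateral replicates 1 to 3. On the mean of log2 scores contralateral replicate 2 lay within the sham range. Ttr, transthyretin of the choroid plexus, made up most of the summed score. It read 21779, 23566 and 21724 against 80756, 39222 and 59981, above sham in every library, and was not called (1.36, interval 0.54 to 2.19, adjusted p = 0.135). Of the 50 risen genes 10 had the same order of contralateral replicates as Ttr, with replicate 1 highest and replicate 2 lowest: Igfbp3, Apod, Galnt15, Hhex, Hlx, Clec14a, Gpr182, Cxcl9, Cxcl10 and Ubd. The part of choroid plexus in their rise was not tested. How common this order is among all genes was not counted, so the 10 are a description only. Erythrocyte markers were all below 0 (7 of 7, median -1.06), with Hbb-bs, a beta-globin, at 1549, 1509 and 1378 against 591, 1261 and 509, and not called (adjusted p = 0.258). Microglia markers had a median of 0.01, with a summed score of 2652 to 3165 against 2764 to 3247. Neutrophil (6 tested) and B cell (9 tested) markers had summed scores of at most 113 in any library.

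**Figure D5:**
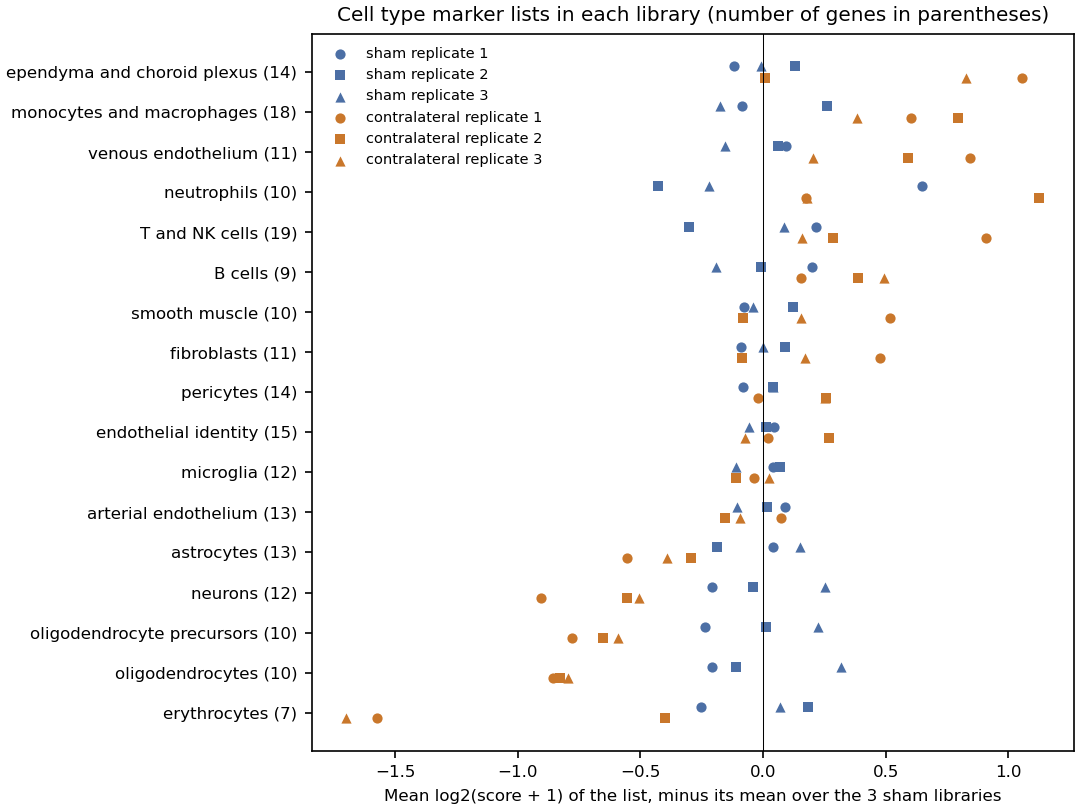
Mean log2(score + 1) of each marker list in each of the 6 libraries, minus its mean over the 3 sham libraries (blue, sham; orange, contralateral; shapes, replicates); the parentheses give the genes in the table, tested or not. Neuron, astrocyte, both oligodendrocyte lineage lists and erythrocytes lie below 0 in every contralateral library, choroid plexus lies highest in contralateral replicates 1 and 3, and endothelial identity overlaps.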

How the data were processed

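Total RNA of brain microvessels went into a stranded library kit, per the labels' protocols. The submitters' processing notes name STAR 2.4.0a, featureCounts 1.4.5-p1, DESeq2 and the build GRCm38 (mm10). Use of strand in counting is not stated there, so overlapping genes of opposite strands may share reads. In the deposited table each value is a normalised score of 1 gene in 1 library: whole numbers that fit reads multiplied by 1 factor for each library and rounded by the authors, not read counts. Estimated from the gaps between low values, 1 read was worth 0.809 to 1.86 units in the 6 libraries; on simulated libraries the largest error was 0.0107.

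Tests ran on log2(score + 1), for genes reaching 10 in 3 or more of the 15 libraries, with the limma trend method (limma 3.58.1, R 4.3.3). All 15 libraries entered the fit, so the spread (10 residual and 8.26 prior degrees of freedom) is shared with the tumour libraries. P-values were adjusted by the Benjamini-Hochberg method over 19668 genes; calls needed a value under 0.05. The script was tested on simulated scores. Alternatives were pseudocounts of 0.5 and 10, no filter or one at 50, no trend, quantile normalisation, scaling to the endothelial identity list, library weights, voom on approximate reads, only the 6 libraries, the replicate number as a block, and each of the 6 libraries left out. A fit without untreated tumour replicate 2 and dual therapy replicate 2 was chosen after seeing the data.

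The comparison, 18 function lists and 17 marker lists were chosen with earlier results of these data known, and 5 lists (postsynaptic density, presynaptic terminal, heat shock proteins, TNF superfamily, chemokine ligands) were added after the values were seen. Of 739 list entries 4 were not in the table; a symbol on several rows was read from the row with the higher mean. Values per library are given for the 12 risen and 12 fallen genes with the largest change among called genes that reach a group mean of 50 and do not overlap, for up to 4 members of a list with called genes or else the 2 with the highest mean, and for 26 genes always named. Other genes with values were chosen after these were seen. The rows of 2 called genes are not reported here, though counts include them.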

Additional observations from a re-analysis of the deposited data

How the results depend on the processing

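The number of genes called (85; 50 rose and 35 fell) was 77 to 102 with pseudocounts of 0.5 or 10, no filter, a filter at 50 or the replicate number as a block in all 15 libraries. It was 57 after quantile normalisation (46 rose, 11 fell) and 75 with voom (23 rose, 52 fell), 38 with endothelial identity scaling (27 and 11), 8 without the trend (7 and 1), 631 with library weights (236 and 395) and 0 with only the 6 libraries (0 and 0); the cause was not tested. Leaving out 1 of the 6 libraries gave 22 to 63 calls, 17 to 47 rises and 5 to 16 falls. Without untreated tumour replicate 2 and dual therapy replicate 2, chosen after seeing the data, 208 genes were called (90 rose, 118 fell). No pairing of replicate numbers is stated, and deviations of same-numbered libraries correlated at 0.0366, 0.0184 and 0.0385, so no pairing was taken; each library did correlate best with its own number. With the replicate block the calls numbered 102 in all 15 libraries (57 rose, 45 fell) and 206 in the 6 (32 rose, 174 fell). All 85 called genes kept their direction in every fit. Directions that turned were those of genes not called. Vegfa was 0.057 after quantile normalisation. With 1 library left out Vegfa lay between -0.191 and 0.179, Fkbp5 between -0.517 and 0.188, Kdr between -0.047 and 0.171, Plvap between -0.054 and 0.642 and Slc2a1 between -0.039 and 0.187. Sham replicate 2, at 6365348 estimated reads, was the shallowest library and limits what a score of 0 in sham can show.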
